A study of Mus musculus with 8 samples.

Results

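The core circadian clock genes were examined in distal convoluted tubules (DCT) of mice lacking TBC1D4 and of wild-type mice. They were chosen as a list of 10 genes (Arntl, Clock, Per1, Per2, Per3, Cry1, Nr1d1, Nr1d2, Dbp and Tef), each read by probe sets that the platform annotation gives exactly 1 symbol. Of these, 8 genes were measured, by 9 probe sets, out of 18782 genes and 28371 probe sets in all. Nr1d1 and Dbp were not measured under this rule, because each is annotated only on probe sets that carry a second symbol (Thra for Nr1d1, Sphk2 for Dbp), and no value is given for them. The 4 TBC1D4-deficient and 4 wild-type samples came from male C57/Bl6 mice aged 8 weeks. Mice of both genotypes also carried a parvalbumin-promoter EGFP transgene (PV-EGFP wt/tg), which labels tubules in which that promoter is active. COPAS, a sorter for large particles, picked the fluorescent ones, and markers of other cells were also read, as given below. Each sample was read on its own 1-colour array. The labels do not give the time of day at which tubules were collected, whether each sample came from 1 animal, or which part of Tbc1d4 was removed.

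The mammalian clock is a transcriptional feedback loop that runs in nearly every cell. ARNTL (BMAL1) and CLOCK form a heterodimer that binds E-box sequences and switches on the Per and Cry genes, whose proteins return to the nucleus and repress the heterodimer. In a second loop the nuclear receptors NR1D1 and NR1D2 (REV-ERB) repress Arntl through ROR elements, while DBP and TEF, activators with a PAR bZIP domain, act on D-box sequences. In most tissues Arntl transcripts therefore peak at about the opposite time of day to Per, Nr1d and Dbp transcripts. In the kidney, clock genes are known to influence sodium reabsorption in the distal nephron, and Per1 is also induced by aldosterone and glucocorticoids.

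Promoter windows of the members show where these elements lie. RefSeq windows, reaching from 250 bases before a gene's start to 50 after it (build GRCm38.p6), were matched by symbol for 7 of the 8 measured genes. Per2 had no window and was not searched. There were 12 windows, since Arntl, Clock, Per1 and Tef have several starts. The windows of Arntl overlap each other, as do some of Clock. The following 3 motifs were searched on both strands, the E-box CACGTG, which reads the same on both strands, the D-box TTATGTAA and the ROR element core TAGGTCA, and 0 of their matches overlapped. The E-box was present in windows of 3 genes, Per1, Cry1 and Tef, and in 4 of the 12 windows, against 7.15% of all 32851 windows. The D-box was present in 1 gene, Per3, which held it at 205 and at 158 bases before the start, so in 1 of the 12 windows against 0.938% of all windows. The ROR element was present in 1 gene, Arntl, 31 bases after the start, so in 1 of the 12 windows against 2.61% of all windows. The windows are printed because they hold each kind of element in genes whose levels are compared across arrays, with the motif in capitals.
Per1 promoter (GRCm38.p6 chr11:69098699-69098998, plus strand): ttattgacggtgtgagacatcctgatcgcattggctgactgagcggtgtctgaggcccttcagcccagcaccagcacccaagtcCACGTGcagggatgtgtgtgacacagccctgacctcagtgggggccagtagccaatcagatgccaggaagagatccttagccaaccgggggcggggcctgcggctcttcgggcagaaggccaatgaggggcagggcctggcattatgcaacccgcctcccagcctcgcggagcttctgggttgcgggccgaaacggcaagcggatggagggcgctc
Cry1 promoter (GRCm38.p6 chr10:85185005-85185304, minus strand): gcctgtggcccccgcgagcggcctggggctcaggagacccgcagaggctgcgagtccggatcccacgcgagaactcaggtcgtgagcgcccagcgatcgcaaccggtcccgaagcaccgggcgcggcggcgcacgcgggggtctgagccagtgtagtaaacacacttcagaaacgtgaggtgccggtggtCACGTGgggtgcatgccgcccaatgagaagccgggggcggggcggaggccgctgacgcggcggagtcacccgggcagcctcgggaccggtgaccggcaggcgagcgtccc
Per3 promoter (GRCm38.p6 chr4:151044616-151044915, minus strand): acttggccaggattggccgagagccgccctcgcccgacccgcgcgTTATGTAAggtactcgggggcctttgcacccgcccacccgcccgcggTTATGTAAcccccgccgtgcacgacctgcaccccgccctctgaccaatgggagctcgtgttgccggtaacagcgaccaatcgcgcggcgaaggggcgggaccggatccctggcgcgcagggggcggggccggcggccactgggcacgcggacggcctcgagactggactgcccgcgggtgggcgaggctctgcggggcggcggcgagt
Arntl promoter (GRCm38.p6 chr7:113207261-113207560, plus strand): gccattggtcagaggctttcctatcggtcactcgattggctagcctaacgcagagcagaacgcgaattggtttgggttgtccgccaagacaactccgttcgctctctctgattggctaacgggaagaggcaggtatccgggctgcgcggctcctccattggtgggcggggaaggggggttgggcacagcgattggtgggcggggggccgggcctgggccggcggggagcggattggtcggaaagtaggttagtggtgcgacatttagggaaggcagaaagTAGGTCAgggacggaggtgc

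In the Per1 window the E-box lies 166 bases before the start, and in the Cry1 window 60 bases before it. A match is a string of letters in a window and not a measured binding site.

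The arrays matched their labels and their tissue. Tbc1d4 averaged 2.48 ± 0.21 in TBC1D4-deficient arrays and 6.75 ± 0.15 in wild-type arrays (log2 intensity, SD, n = 4 each). Slc12a3, the thiazide-sensitive cotransporter that defines the DCT, was at 11.45 to 11.56 in the 8 arrays and Pvalb at 9.57 to 9.85. Markers of other cells were not at 0. All 17 proximal tubule markers were measured, with Slc34a1, the phosphate cotransporter of that segment, at 8.66 to 10.19. The mean of those 17 genes, each centred on its own mean over the arrays, ran from -1.03 to 0.27 in TBC1D4-deficient arrays and from -0.42 to 0.71 in wild-type arrays. In the comparison of genotypes 17 of the 17 proximal tubule markers lay below 0. So did 11 of 11 endothelial, 6 of 6 principal cell and 7 of 8 intercalated cell markers, where 49.1% of all probe sets lay above 0. Markers of 1 cell type share the same 8 arrays, so these counts are not of independent genes. By limma 0 of the markers were called after adjustment. Before it, 0 proximal tubule, 7 endothelial, 0 principal cell and 1 intercalated cell marker had a p below 0.05, against 2.9% of all probe sets. The mean of the endothelial markers ran from -0.36 to -0.018 in TBC1D4-deficient arrays and from 0.050 to 0.20 in wild-type arrays. The part of any of these markers in the clock gene values was not tested. In such bulk samples, fewer cells of a type and less RNA per cell cannot be told apart.

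No clock gene was found to differ between genotypes. Of the 8 measured genes, 0 passed a limma adjusted p below 0.05 and 0 had an unadjusted p below 0.05, where 0.00434% and 2.9% of all 23039 probe sets tested did so. In 0 of the 8 did the arrays of the genotypes separate without overlap, against 1.85% of all probe sets. The log2 difference, TBC1D4-deficient minus wild-type, lay above 0 for 7 genes and below 0 for 1, with a median of 0.11 against -0.0017 over all probe sets, of which 49.1% lay above 0. Its 95% interval lay inside 1.5-fold for 6 of the 8, against 97.4% of all probe sets, and the exceptions were Per1 and Per2.

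**Figure D1:**
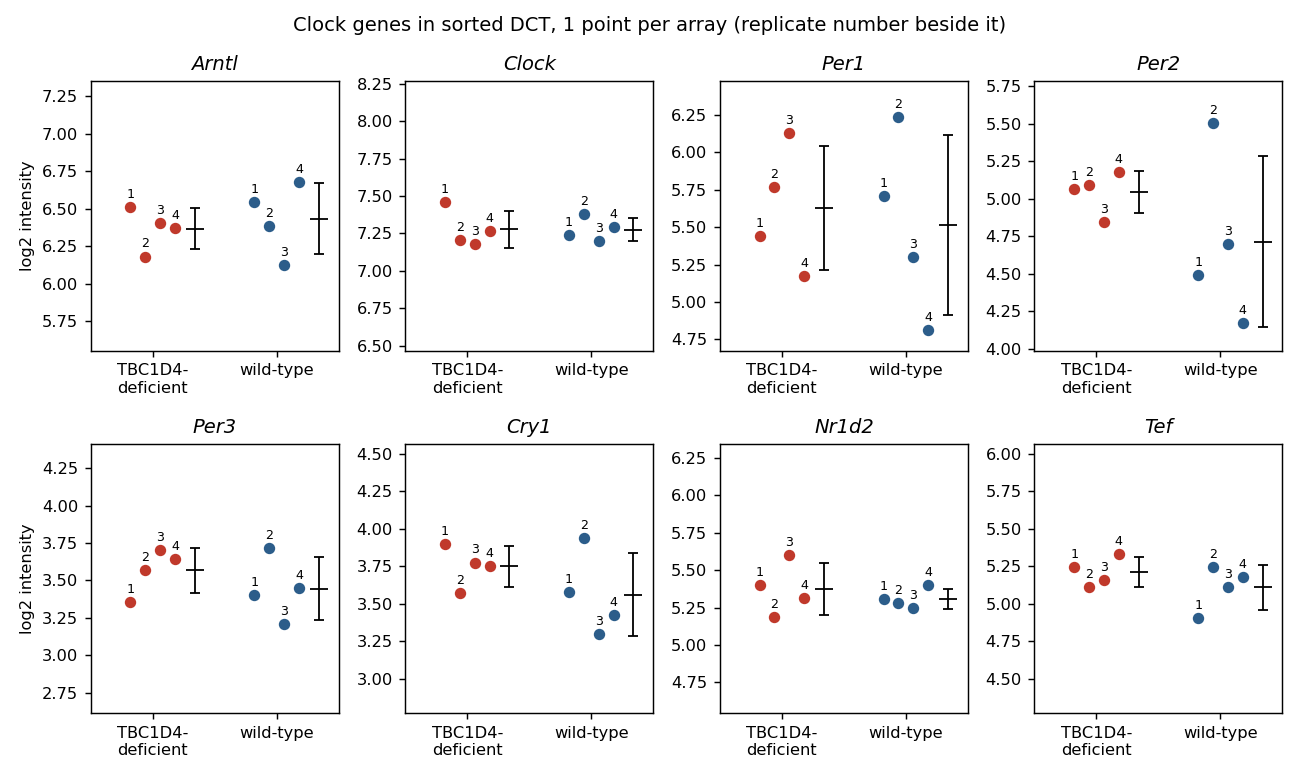
Log2 intensity of the 8 measured clock genes, 1 point per array with its replicate number, TBC1D4-deficient left and wild-type right, each panel spanning the same log2 range on its own offset; the bar to the right of each set of points is the mean with SD (n = 4). The genotypes overlap in every panel, and the points spread most in Per1 and, in wild-type arrays, in Per2.

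Of the activators of the loop, Clock varied less between arrays than Arntl. Clock was at 7.46, 7.21, 7.18 and 7.27 in TBC1D4-deficient replicates 1 to 4, against 7.24, 7.38, 7.20 and 7.29 in wild-type replicates 1 to 4. All 8 values lie within 0.28 on the log2 scale, and both genotypes averaged 7.28 (log2 difference 0.0014, 95% interval -0.17 to 0.17). Arntl, the partner of CLOCK and the only clock gene whose single loss stops behavioural rhythms in mice, was at 6.51, 6.18, 6.41 and 6.37 in TBC1D4-deficient replicates 1 to 4, against 6.55, 6.39, 6.13 and 6.68 in wild-type replicates 1 to 4. Its lowest and highest arrays, replicates 3 and 4, were both wild-type. The log2 difference of Arntl was -0.07 (-0.33 to 0.19; limma adjusted p = 0.9999), and it was 0.014 without wild-type replicate 4.

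Among the Period genes, which encode repressors, Per1 and Per2 held the widest values of the 8 members. Per1 was at 5.44, 5.76, 6.13 and 5.17 in TBC1D4-deficient replicates 1 to 4, against 5.71, 6.23, 5.30 and 4.82 in wild-type replicates 1 to 4. The highest array was 2.67-fold above the lowest, and both extremes, replicates 2 and 4, were wild-type. The log2 difference between genotypes was 0.11 (-0.52 to 0.75; exact permutation p = 0.771), and it was -0.055 without TBC1D4-deficient replicate 3, -0.12 without wild-type replicate 4 and 0.35 without wild-type replicate 2.

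Per2 was at 5.07, 5.09, 4.84 and 5.18 in TBC1D4-deficient replicates 1 to 4, against 4.49, 5.50, 4.70 and 4.17 in wild-type replicates 1 to 4. The TBC1D4-deficient arrays all lay inside the wild-type range, above 3 of the 4 wild-type arrays and below wild-type replicate 2. Per2 averaged 5.04 ± 0.14 in TBC1D4-deficient arrays and 4.71 ± 0.57 in wild-type arrays (SD, n = 4 each). The log2 difference was 0.33 (-0.18 to 0.85; limma adjusted p = 0.9999, exact permutation p = 0.314). This was the largest difference among the 8 genes. It was 0.59 without wild-type replicate 2 and 0.15 without wild-type replicate 4.

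Per3, a Period paralog that is not needed for the core oscillation, was at 3.36, 3.57, 3.70 and 3.64 in TBC1D4-deficient replicates 1 to 4, against 3.40, 3.72, 3.21 and 3.45 in wild-type replicates 1 to 4. These values are close to the median level of all genes, 3.58, and cannot be told from background, since the deposited table holds no detection calls. The log2 difference was 0.12 (-0.13 to 0.37), and it was 0.21 without wild-type replicate 2, 0.044 without wild-type replicate 3, 0.19 without TBC1D4-deficient replicate 1 and 0.078 without TBC1D4-deficient replicate 3. Cry1, the cryptochrome that closes the negative limb with the Period proteins, was likewise dim, at 3.90, 3.57, 3.78 and 3.75 in TBC1D4-deficient replicates 1 to 4, against 3.58, 3.94, 3.30 and 3.43 in wild-type replicates 1 to 4. The TBC1D4-deficient arrays again lay inside the wild-type range, and the log2 difference was 0.19 (-0.10 to 0.48; exact permutation p = 0.314). It was 0.32 without wild-type replicate 2, 0.10 without wild-type replicate 3 and 0.0031 with the second number of the descriptions in the model.

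In the second loop, Nr1d2, the repressor REV-ERB beta, was at 5.40, 5.19, 5.60 and 5.31 in TBC1D4-deficient replicates 1 to 4, against 5.31, 5.28, 5.25 and 5.40 in wild-type replicates 1 to 4. The highest and the lowest array were both TBC1D4-deficient, and the log2 difference was 0.07 (-0.13 to 0.26). A second probe set of Nr1d2 stood at 1.38 to 1.60 in all arrays, with a difference of -0.00097. Tef was at 5.25, 5.11, 5.16 and 5.33 in TBC1D4-deficient replicates 1 to 4, against 4.90, 5.25, 5.11 and 5.18 in wild-type replicates 1 to 4. Its log2 difference was 0.10 (-0.09 to 0.29), with wild-type replicate 1 lowest of the 8, and it was 0.033 without that array and 0.061 without TBC1D4-deficient replicate 4.

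The spread within a genotype was wider for Per1 and Per2 than for nearly all other genes. The pooled within-genotype SD was 0.52 on the log2 scale for Per1 and 0.41 for Per2, at or above that of 99.1% and 98.6% of the 18782 genes, and of 98% and 96.9% of the genes within 0.5 of their level. Cry1 and Arntl followed at 0.22 and 0.19, at the 91.2 and 86.7 percentiles of all genes. Among genes within 0.5 of their level the order changed, with Arntl at the 91.7 percentile, Cry1 at 75.5, Clock at 61.9, Per3 at 61.1, Nr1d2 at 55.6 and Tef at 47.7. Over all genes, Per3 stood at 0.18 (83.8), Nr1d2 at 0.13 (59.8), Tef at 0.13 (56.4) and Clock at 0.10, at the 40.2 percentile. The median of the 8 was 0.188 against 0.117 over all genes, a ratio of 1.61, which was 1.22 without wild-type replicate 2 and 1.29 without wild-type replicate 3.

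The genotypes did not contribute alike to this spread. The SD was larger in wild-type arrays for 6 of the 8 genes, against 52.3% of all genes, with medians of 0.14 in TBC1D4-deficient and 0.22 in wild-type arrays. Per2 had an SD of 0.142 in TBC1D4-deficient and 0.569 in wild-type arrays, and Cry1 0.136 and 0.278. Nr1d2 ran the other way, at 0.173 in TBC1D4-deficient and 0.068 in wild-type arrays, as did Clock, at 0.126 and 0.078. No test of these SDs was made. The mean of 20 immediate early genes, transcripts that tissue handling can induce, also ranged more widely in wild-type arrays, from -0.12 to 0.011 in TBC1D4-deficient and from -0.45 to 0.77 in wild-type arrays, and its part in the spread of the clock genes was not tested.

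**Figure D2:**
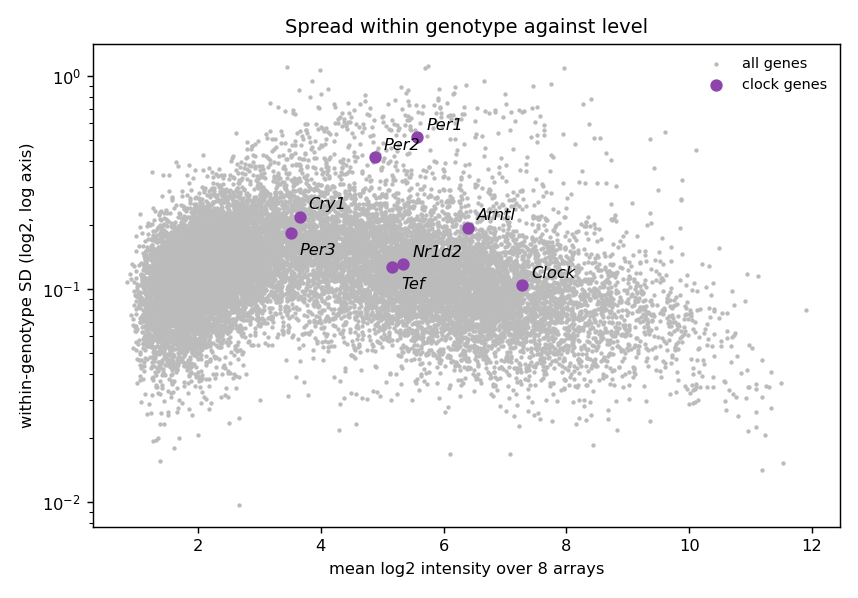
Pooled within-genotype SD (log2, logarithmic axis) against mean log2 intensity over 8 arrays, 1 grey point per gene and 1 purple point per clock gene. Per1 and Per2 lie near the upper edge of the cloud at 0.52 and 0.41, while Clock, Nr1d2 and Tef lie within it.

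The phase relation was then followed array by array, as the mean of Arntl and Clock set against the mean of Per1, Per2, Per3 and Nr1d2, each gene centred on its own mean over the 8 arrays. In wild-type replicate 4 the activators stood at 0.15 and the second arm at -0.36, the widest separation, and in wild-type replicate 2 they stood at 0.043 and 0.36. TBC1D4-deficient replicates 2 and 3 had the activators at -0.15 and -0.046 and the second arm at 0.079 and 0.24. TBC1D4-deficient replicate 1 had 0.15 and -0.0086, and wild-type replicate 1 had 0.053 and -0.098. Wild-type replicate 3 was low in both arms, at -0.18 and -0.21, and TBC1D4-deficient replicate 4 was near 0 in both, at -0.020 and 0.0014. The arms had opposite signs in 6 of the 8 arrays, the exceptions being wild-type replicates 2 and 3. In TBC1D4-deficient replicates 1 and 4 the second arm was within 0.01 of 0. The genes of an arm did not all move together. Over the arrays Nr1d2 had a Pearson r of 0.50 with Arntl, 0.12 with Per1, -0.25 with Per2 and 0.27 with Per3. Clock had 0.35 with Per2, -0.057 with Per1, -0.022 with Per3 and -0.0062 with Nr1d2. The count of signs therefore does not describe each pair of genes.

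The phase index, the first arm minus the second, was 0.16, -0.22, -0.29 and -0.021 in TBC1D4-deficient replicates 1 to 4, against 0.15, -0.32, 0.035 and 0.51 in wild-type replicates 1 to 4. It averaged -0.095 ± 0.20 and 0.095 ± 0.34 (SD, n = 4 each), and the wild-type arrays enclosed all TBC1D4-deficient ones. The difference of -0.19 was smaller than the SD within either genotype, and no test was made of it. It was -0.052 without wild-type replicate 4 and -0.33 without wild-type replicate 2. Of its terms, Arntl spanned 0.55 and Clock 0.28 over the arrays while Per1 and Per2 spanned 1.42 and 1.33.

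**Figure D3:**
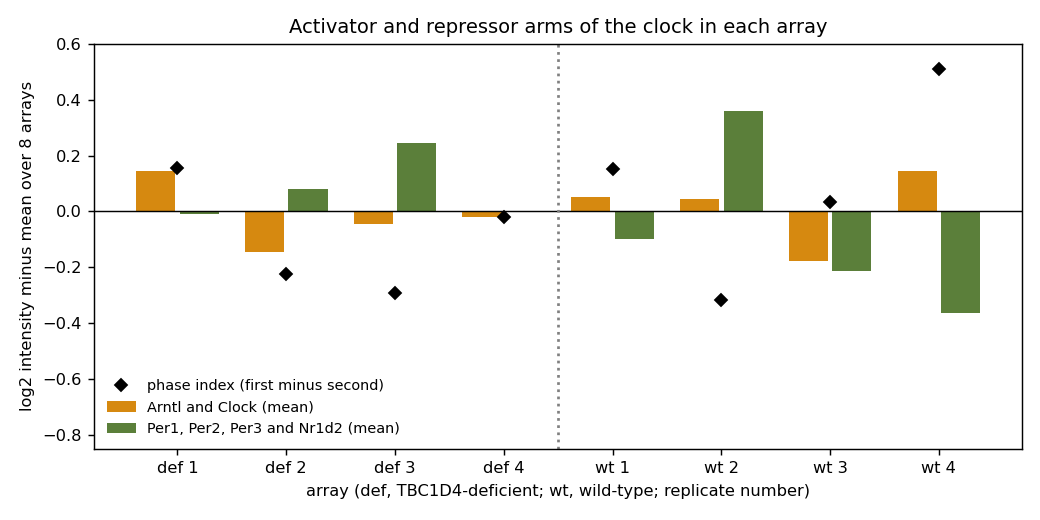
For each array, the mean of Arntl and Clock (orange bars), the mean of Per1, Per2, Per3 and Nr1d2 (green bars) and their difference, the phase index (black diamonds), in log2 intensity centred on the mean over 8 arrays; TBC1D4-deficient arrays are left of the dotted line and wild-type arrays right of it. The index ranges from -0.32 to 0.51, with both ends in wild-type arrays.

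Across the 8 arrays Arntl did not show a tested relation to any other member. In the 7 relations computed, Arntl had a negative Pearson r with 3 genes and a positive one with 4, and 0 passed an exact permutation p below 0.05 before or after adjustment (smallest adjusted p = 0.634 for r and 0.486 for Spearman's rho). The most negative was with Per2, at r = -0.46 (exact permutation p = 0.254) and rho = -0.52 (p = 0.197), and r was -0.46 without wild-type replicates 3 and 4, the arrays farthest from the Arntl median. With Per1, r was -0.27 (exact permutation p = 0.52) and rho -0.17 (p = 0.703), and r was -0.12 without those arrays. With its partner Clock, r was 0.44 (exact permutation p = 0.272) and rho 0.43 (p = 0.299). The most positive was with Nr1d2, at r = 0.50 (exact permutation p = 0.202) and rho = 0.69 (p = 0.069), with r at 0.43 without those 2 arrays. With the mean of each set of description numbers (9 to 12, 5 to 8) removed, r was -0.32 for Per2 and 0.65 for Nr1d2.

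The Period genes and Cry1 were positively correlated with each other in all of their 6 pairs. Their r ran from 0.53 for Per2 and Per3 to 0.73 for Per2 and Cry1. All of these pairs but Per1 and Per2 include Per3 or Cry1, whose values cannot be told from background. Of all 28 pairs of members, 20 had a positive r, 1 had an exact permutation p below 0.05 and 0 passed after adjustment over the 28. That pair was Per2 and Cry1, with r = 0.73 (exact permutation p = 0.0413, adjusted p = 0.586) and rho = 0.64 (p = 0.0962, adjusted p = 0.567). Without wild-type replicates 2 and 4, the arrays farthest from the Per2 median, r was 0.53. Per1 and Per2 had r = 0.58 (exact permutation p = 0.132) and rho = 0.48 (p = 0.243). Without the same arrays r was -0.27, so that relation depended on them, though leaving them out also narrows the range of both genes. Per3 and Cry1 had r = 0.64 (exact permutation p = 0.0906) and rho = 0.57 (p = 0.151), and r was 0.12 without wild-type replicates 2 and 3. Without wild-type replicates 2 and 4, r was 0.18 for Per1 and Cry1, 0.47 for Per1 and Per3 and 0.46 for Per2 and Per3.

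**Figure D4:**
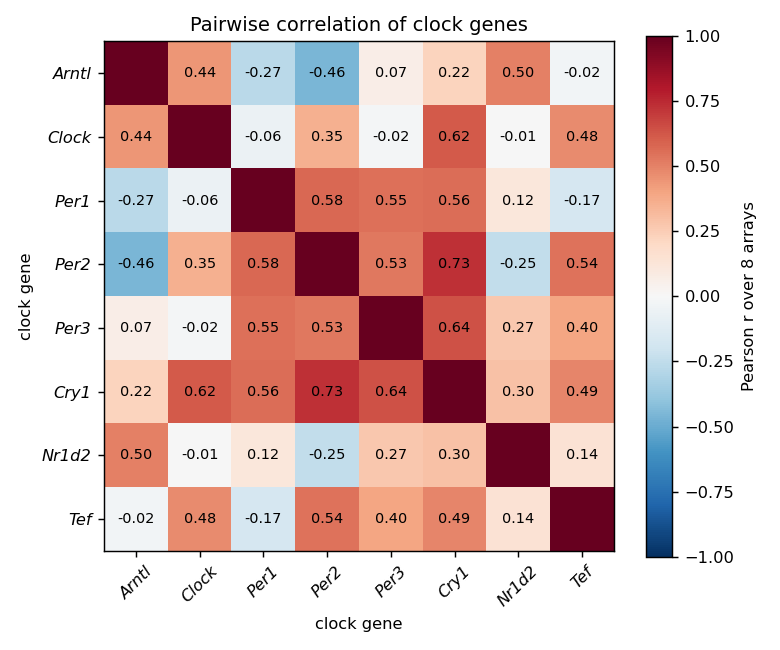
Pearson r over 8 arrays for each pair of the 8 measured clock genes, on a scale from blue (-1) to red (1). Per1, Per2, Per3 and Cry1 form a block of positive values of 0.53 to 0.73, where the intensities of Per3 and Cry1 cannot be told from background. The row of Arntl runs from -0.46 with Per2 to 0.50 with Nr1d2.

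The sample descriptions carry numbers of unstated meaning, and the clock genes were compared across them with genotype in the model. For the opening numbers, 9 to 12 minus 5 to 8, 0 of the 8 genes passed a limma adjusted p below 0.05 or an unadjusted one, where 0.00868% and 11.6% of all probe sets did. Arntl had a log2 difference of 0.16 (-0.09 to 0.41; limma adjusted p = 0.623) and Per2 of -0.35 (-0.83 to 0.12; limma adjusted p = 0.561). The genotype difference of Per2 was 0.75 within numbers 9 to 12 and -0.090 within 5 to 8, and that of Arntl was -0.26 within 9 to 12 and 0.13 within 5 to 8. The interaction of genotype and number set was 0.84 for Per2 (0.07 to 1.62; limma unadjusted p = 0.0368, adjusted p = 0.9994) and -0.40 for Arntl (-0.83 to 0.04; limma adjusted p = 0.9994). It passed for 0 of the 8 genes after adjustment and for 1 before it, against 0% and 4.51% of all probe sets. The phase index differed between genotypes by -0.37 within 9 to 12 and by -0.016 within 5 to 8.

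The second number of the descriptions falls into a higher and a lower run of 4 arrays each, called the higher and the lower range here. For the higher minus the lower range, all 8 genes lay below 0, with a median of -0.17 against 0.0018 over all probe sets, of which 49.3% lay below 0. After adjustment 0 of the 8 passed in limma and before it 1 did, against 0% and 4.9% of all probe sets. That gene was Cry1, which ran from 3.30 to 3.58 in the arrays of the higher range and from 3.75 to 3.94 in those of the lower, a log2 difference of -0.37 (-0.59 to -0.15; limma unadjusted p = 0.00406, adjusted p = 0.988). Per2 ran from 4.17 to 5.09 and from 4.84 to 5.50 in the higher and lower ranges, a difference of -0.49 (-1.01 to 0.02), which was 0.064 without wild-type replicate 2. The higher range holds 1 TBC1D4-deficient and 3 wild-type arrays and the lower 3 and 1, so genotype and range can be told apart only in part. With the range in the model the genotype difference of Cry1 was 0.0031 and that of Per2 0.084. The mean of the proximal tubule markers ran from -0.42 to 0.71 in the higher range and from -1.03 to 0.066 in the lower, so its values overlapped. Its lowest array was TBC1D4-deficient replicate 1. Over the 8 arrays 0 of the 17 markers had a positive r with Cry1 (median -0.75), against 50.7% of all genes. Markers of 1 cell type share the same arrays, so counts of this kind are not of independent genes. None of the 17 was positive with Clock (median -0.67), Per2 (-0.41), Per1 (-0.36) or Arntl (-0.34) either, while 3 were with Nr1d2 (-0.18), 6 with Per3 (-0.11) and 8 with Tef (-0.044). Without the 2 arrays farthest from the median of each clock gene, 0 of the 17 were positive with Cry1, Arntl, Nr1d2 and Tef, 4 with Per2, 7 with Per1, 11 with Clock and 17 with Per3. Other markers ran against Cry1 too, with 1 of 11 endothelial (median -0.67), 0 of 8 intercalated cell (-0.63) and 0 of 6 principal cell (-0.49) markers positive. Without wild-type replicates 2 and 3 these were 0 (-0.83), 1 (-0.57) and 2 (-0.22). This was not particular to Cry1. Intercalated cell markers were positive 0 times with Nr1d2 (-0.61) and 1 with Tef (-0.70), but 4 with Per1 (-0.040). Principal cell markers were positive 0 times with Per3 (-0.51), but 3 with Per2 (-0.16). With the mean of the proximal tubule markers in the model, the genotype difference of Cry1 was 0.10 and that of Per2 0.25. The part of any of these markers in the range difference was not tested.

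Other genes of the clock gave no call either. Of 21 further clock genes listed, 19 were measured, and 7 lay above and 12 below 0 in the comparison of genotypes, with a median log2 difference of -0.0086. By limma 0 passed after adjustment and 0 before it, against 0.00434% and 2.9% of all probe sets, of which 49.1% lay above 0. Npas2, a paralog of Clock that can also pair with ARNTL, was at 6.30, 6.04, 5.82 and 5.79 in TBC1D4-deficient replicates 1 to 4, against 6.46, 5.94, 6.27 and 6.58 in wild-type replicates 1 to 4. It had the smallest unadjusted p of the list, with a log2 difference of -0.33 (-0.66 to 0.0074; limma unadjusted p = 0.0544, adjusted p = 0.9999), and TBC1D4-deficient replicate 1 lay above wild-type replicates 2 and 3, so the groups overlapped. Its r with Arntl over the 8 arrays was 0.48. Timeless, Csnk1e, a kinase that marks Period proteins for breakdown, and Nono, an RNA-binding partner of the Period complex, stood at -0.15, -0.11 and -0.07.

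The 4 further clock genes with the widest spread were Nfil3, Bhlhe40, Ciart and Npas2. Nfil3, a repressor that competes at D-boxes, ranged from 4.57 to 5.13 in TBC1D4-deficient and from 4.35 to 5.45 in wild-type arrays. Bhlhe40 (DEC1), a repressor at E-boxes, ranged from 6.49 to 7.16 and from 6.57 to 7.57 in TBC1D4-deficient and wild-type arrays. Ciart (CHRONO), a repressor of the ARNTL complex, was dim and ranged from 2.33 to 2.83 in TBC1D4-deficient arrays and from 2.11 to 3.24 in wild-type arrays. Wild-type replicate 1 was the highest of the 8 arrays in Nfil3, Bhlhe40 and Ciart, whereas in Per1 and Per2 it was wild-type replicate 2. Wild-type replicate 1 was also the highest in the mean of the immediate early genes, at 0.77. The part of such genes in these values was not tested.

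Genes that the clock is known to drive were read from a list of 14, of which 12 were measured. In the comparison of genotypes 7 lay above and 5 below 0, where 49.1% of all probe sets lay above 0. By limma 0 were called after adjustment and 0 before it, against 0.00434% and 2.9% of all probe sets. Usp2, a deubiquitinase under direct clock control, was at 7.58, 7.95, 8.10 and 7.70 in TBC1D4-deficient replicates 1 to 4, against 7.36, 7.94, 7.52 and 7.17 in wild-type replicates 1 to 4. All TBC1D4-deficient arrays lay above 3 of the 4 wild-type arrays, and the log2 difference was 0.33 (-0.03 to 0.70; limma adjusted p = 0.9999). Scnn1a, the alpha subunit of the epithelial sodium channel and a PER1 target in the collecting duct, stood at 0.14, Wee1, a cell cycle kinase with E-boxes in its promoter, at 0.15 and Gys2, liver glycogen synthase, which was dim, at -0.17. The genes with the widest spread were Slc9a3, the sodium-proton exchanger of the proximal tubule, at 4.82 to 5.73 in TBC1D4-deficient and 5.12 to 5.79 in wild-type arrays, and Cdkn1a (p21), at 5.33 to 5.55 and 4.85 to 5.90. Pdk4, an inhibitor of pyruvate oxidation, ran from 8.34 to 8.89 and from 7.98 to 8.84.

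Corticosteroid-induced genes were read because Per1 is among the targets of these hormones. Of 12 measured, 8 lay above and 4 below 0, where 49.1% of all probe sets lay above 0. By limma 0 were called after adjustment and 1 before it, against 0.00434% and 2.9% of all probe sets. That gene was Tsc22d3 (GILZ), at 5.01, 5.34, 5.11 and 4.83 in TBC1D4-deficient replicates 1 to 4, against 4.52, 5.07, 4.64 and 4.80 in wild-type replicates 1 to 4 (log2 difference 0.32; limma unadjusted p = 0.0389, adjusted p = 0.9999). Fkbp5, a chaperone that restrains the glucocorticoid receptor, stood at 0.29, Zbtb16, which was dim, at 0.26 and Errfi1 at -0.09. Per1 had a positive r over the 8 arrays with 11 of the 12 genes, with a median of 0.46 against -0.023 over all 18782 genes, of which 48.1% were positive. Per3 was also positive with 11 (median 0.52), Per2 with 11 (0.28) and Cry1 with 12 (0.36), while Arntl and Clock were positive with 6 each (0.013 and -0.031). Without the 2 arrays farthest from the median of each clock gene, 10 of the 12 were positive for Per1 (median 0.47). Per3 had 8 (0.38), Cry1 7 (0.14) and Per2 5 (-0.12). The counts of Per2 and Cry1 thus depended on those arrays, though leaving them out also narrows the range of the clock gene. The widest spread was that of Dusp1, at 8.18 to 8.82 in TBC1D4-deficient and 8.05 to 9.39 in wild-type arrays. Sgk1, the aldosterone-induced kinase, followed at 3.28 to 4.31 and 3.46 to 4.21, and it was dim, at a level like that of Cry1. Cebpd, which was dim, ran from 2.89 to 3.21 in TBC1D4-deficient and from 2.80 to 3.58 in wild-type arrays. The highest with Per1 in this list were Cebpb (0.89) and Sgk1 (0.83), both of which were dim. Without wild-type replicates 2 and 4 their r was 0.68 and 0.80. The points share the same 8 arrays and their RNA, and these values are descriptions with no test.

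Immediate early genes gave 5 above and 15 below 0 of 20 measured, where 49.1% of all probe sets lay above 0. By limma 0 were called after adjustment and 0 before it, against 0.00434% and 2.9% of all probe sets. Ier5 stood at -0.13, Socs3 at -0.37, Fosl2 at -0.09 and Zfp36 at -0.23. Atf3, Fosb and Nr4a1, transcription factors induced within minutes of stress, spread most. They ran from 5.22 to 5.94, from 4.90 to 5.36 and from 6.91 to 7.09 in TBC1D4-deficient arrays, against 4.62 to 7.95, 4.24 to 7.17 and 5.86 to 8.06 in wild-type arrays. Per1, which is itself induced quickly by many stimuli, had a positive r with 17 of the 20 (median 0.45), against 48.1% of all genes. Per3 was positive with 18 (median 0.24), Cry1 with 17 (0.31), Per2 with 16 (0.13), Arntl with 16 (0.17), Clock with 14 (0.082), Nr1d2 with 5 (-0.10) and Tef with 1 (-0.41). Without the 2 arrays farthest from the median of each clock gene, 18 were positive for Per1 (median 0.22) and 15 for Arntl (0.42). Cry1 had 8 (-0.031), Clock 8 (-0.11), Nr1d2 6 (-0.16), Per3 4 (-0.21), Per2 0 (-0.34) and Tef 15 (0.43). The counts of Per3, Cry1, Per2, Clock and Tef thus depended on those arrays. Leaving them out narrows the range of the clock gene, so it cannot decide whether a relation is real.

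The genes whose pattern over the 8 arrays was most like that of a clock gene were taken from 192 genes with a mean log2 of at least 5 and an SD of at least 0.3. For Arntl these were Klhl24 (r = 0.92), Cirbp (0.83), a cold-induced RNA-binding protein, Dusp1 (0.69), a phosphatase of MAP kinases, Id3 (0.67) and Tnfsf10 (0.67). Klhl24 was at 7.92, 7.35, 8.03 and 7.61 in TBC1D4-deficient replicates 1 to 4, against 7.95, 7.52, 7.26 and 8.15 in wild-type replicates 1 to 4, with its lowest and highest arrays in the same samples as those of Arntl. Without these 2 samples, wild-type replicates 3 and 4, r was 0.82 for Klhl24 and 0.77 for Cirbp.

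For Per1 the most alike were Cdkn1a (r = 0.86), Gadd45g (0.80), a growth arrest gene, Usp2 (0.79), Rasd1 (0.78), a small GTPase induced by dexamethasone, and Gem (0.77). For Per2 they were Banp (r = 0.95), Cdkn1a (0.89), Usp2 (0.75), Flvcr1 (0.69), a heme exporter, and Gem (0.69). Without wild-type replicates 2 and 4, r was 0.60 for Per1 with Cdkn1a, 0.59 for Per2 with Cdkn1a and 0.84 for Per2 with Banp, but -0.078 for Per2 with Gem. Cdkn1a was at 5.44, 5.53, 5.55 and 5.33 in TBC1D4-deficient replicates 1 to 4, against 5.21, 5.90, 5.10 and 4.85 in wild-type replicates 1 to 4. Cdkn1a, Usp2 and Banp had wild-type replicate 4 as their lowest array, as Per1 and Per2 did, and Cdkn1a and Banp had wild-type replicate 2 as their highest. These genes were picked for their likeness, so r is a description with no test.

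**Figure D5:**
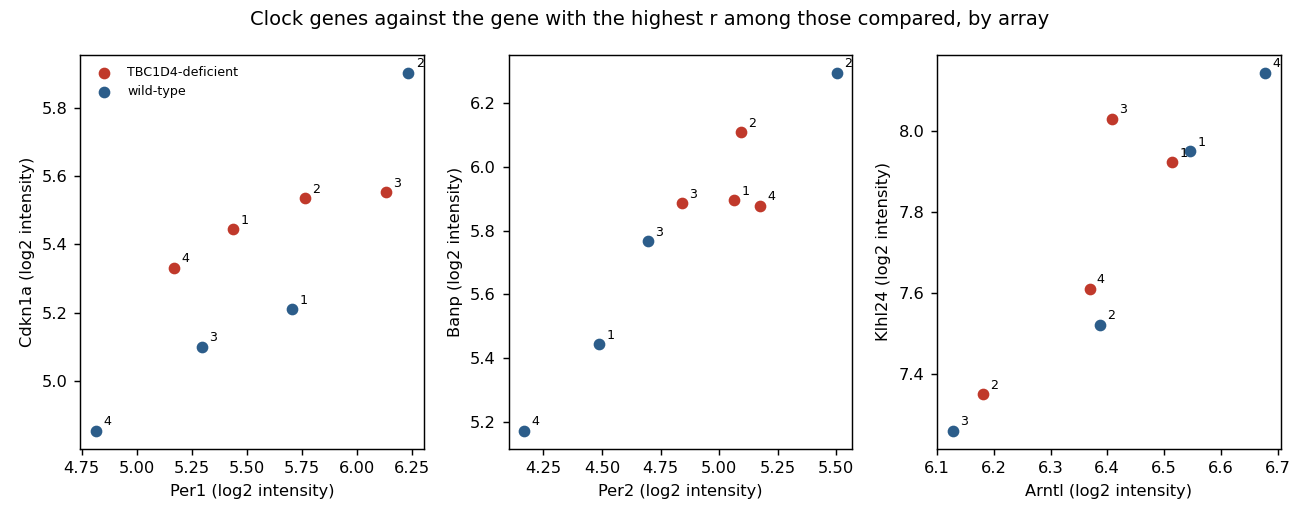
Log2 intensity of Per1 against Cdkn1a, Per2 against Banp and Arntl against Klhl24, 1 point per array with its replicate number, TBC1D4-deficient in red and wild-type in blue. The pairs have r of 0.86, 0.95 and 0.92, and wild-type replicates 2 and 4 lie at the ends in the Period panels.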

How the data were processed

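The authors deposited 1 table of probe set intensities on a linear scale. Affymetrix Power Tools was used, per the submitters' processing notes, while its version, the summarisation, the normalization and the annotation build were not given in the sources used here. Array medians were 8.41 to 9.03, so the arrays shared a common scale, and a change common to most genes could be hidden. There are no detection calls, so a dim difference can be understated. The number of arrays limits the precision.

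The values were taken to log2 with no pseudocount or filter. The 2-sided test between genotypes was limma's (version 3.58.1, R 4.3.3; lmFit and eBayes) over 23039 probe sets with at least 1 symbol, with Benjamini-Hochberg adjustment, a threshold of 0.05 and 95% intervals. Each gene was read by its brightest probe set of exactly 1 symbol. Exact permutation tests were 2-sided, over 70 assignments of arrays (smallest p = 0.0286) or all 40320 pairings. The scripts were tested on simulated data.

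The members, lists and tests were chosen with earlier results of these data known. Named genes are the members, the 4 of each list with the smallest p and the 4 with the widest spread, and the 5 most like Arntl. Likeness to Per1 and Per2, in place of the unmeasured Dbp, the 28 pairs and list correlations were added after the data were seen, as were Cebpb and Sgk1 by their r with Per1. Same-numbered replicates of the genotypes deviated together with correlations of 0.40, -0.19, 0.039 and 0.012. Such correlations cannot decide whether the numbers pair samples, and the main comparison used no pairing. Alternatives were other rows, renewed normalization, other priors, array weights, covariates from the labels, a proximal tubule covariate and leaving out each array. The spread that p-values rest on is that among these samples and may be technical.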

Additional observations from a re-analysis of the deposited data

How the results depend on the processing

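In the 23 alternatives to the comparison of genotypes, 0 clock genes passed in limma (smallest adjusted p = 0.997), and 0 did with the replicate block. With the filter at a mean log2 of 5, Per2, Per3 and Cry1 were not tested. The counts for the number set, the identifier range, the interaction and the correlations of Arntl were also 0 under each alternative run. Signs of the small genotype differences turned in some. Clock stood at -0.015 with array weights, -0.056 with the identifier range, -0.063 within numbers 5 to 8 and -0.039 with the proximal tubule markers. Per1 stood at -0.081 with the identifier range and -0.12 within 5 to 8, where Arntl stood at 0.13, Per2 at -0.090, Errfi1 at 0.035, Socs3 at 0.051 and Zfp36 at 0.052. Nr1d2 stood at -0.062 within 9 to 12. Leaving out 1 array gave -0.058 to 0.035 for Clock, -0.12 to 0.35 for Per1, -0.0090 to 0.13 for Nr1d2, -0.17 to 0.014 for Arntl, -0.16 to 0.040 for Fosl2 and -0.49 to 0.16 for Zfp36, and -1.05 to 0.064 for the identifier range difference of Per2. The r of Arntl with Tef was 0.13 with arrays centred on their medians, 0.064 with genotype means and 0.21 with number set means removed, and -0.15 to 0.42 when 1 array was left out. Its r with Per3 was -0.52 without the 2 arrays farthest from the Arntl median. Leaving out 1 array gave -0.57 to 0.18 for Per3, -0.27 to 0.65 for Cry1 and -0.52 to 0.19 for Per1. The phase index kept its sign in all alternatives run, at -0.37 to -0.016, and the spread ratio was 1.22 to 1.75. The causes were not tested.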

Other observations

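Some genes of the lists had a high r with a clock gene over the 8 arrays. They were picked after their values were seen, so r is a description, and the values of Per3 and Cry1 cannot be told from background. Tfrc, the transferrin receptor and a clock-controlled gene of the heart, ran against Per1 (r = -0.88) and Per3 (-0.84), and stayed at -0.82 and -0.76 without the 2 arrays farthest from the median of the clock gene. Scnn1a and Fkbp5 ran with Per3 (r = 0.86 and 0.84; 0.78 and 0.90 without 2 arrays). Hlf, the third PAR bZIP factor beside DBP and TEF, ran with Tef (r = 0.82; 0.78 without 2 arrays). Nampt, the NAD salvage enzyme, ran with Nr1d2 (r = 0.83; 0.54 without 2 arrays). Gsk3b, a kinase that phosphorylates clock proteins, ran with Cry1 at r = 0.81, at 0.98 with genotype means removed and at 0.58 without 2 arrays. Its 8 values spanned 7.20 to 7.33 on the log2 scale, a range of 1.09-fold.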
